A study of Caenorhabditis elegans with 12 samples.

Results

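The transthyretin-related genes of the nematode Caenorhabditis elegans, named ttr- and a number, were followed through late-stage embryos of 6 genotypes. Members were taken by name: every gene whose symbol in the Ensembl 115 annotation of the WBcel235 genome starts with ttr- and a number, which gave 58 genes, all protein coding. Of these, 27 reached at least 10 normalised counts in at least 2 of the 12 libraries and were tested, among 14640 genes of the whole table that did so. The other 31 ttr genes stayed below that level.

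Transthyretin carries thyroid hormone and retinol-binding protein in vertebrate blood. The nematode proteins share a related fold, most carry a signal for secretion, and they form one of the large gene families of nematodes. The function of most members is unknown. TTR-52 is a secreted protein that binds phosphatidylserine on the surface of dying cells and the engulfment receptor CED-1, and so bridges a corpse to the cell that clears it. TTR-33 is known in C. elegans for protecting dopamine neurons from oxidative stress.

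RNA from late-stage embryos was selected for poly(A) and sequenced as directional libraries, with 2 libraries per genotype. The genotypes were lin-61 hpl-2, hpl-2 I158A, hpl-2, lin-61, met-2 set-25 set-32 and N2, which is the wild type. HPL-2 is an HP1-type chromatin protein, LIN-61, with its MBT repeats, binds histone H3 methylated at lysine 9, and MET-2 and SET-25 are methyltransferases for that residue, with SET-32 related to them. I158A names an amino acid change in hpl-2. The labels give no allele names or age in hours, and they do not say whether 2 libraries of a genotype came from separate cultures, so p-values measure only the spread between these libraries, which may be technical. The design implies comparisons between each mutant and N2, between hpl-2 I158A and hpl-2, and between lin-61 hpl-2 and each single mutant.

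The depth was 1593546 to 2533102 assigned reads per library, except for replicate 2 of met-2 set-25 set-32 with 10243076. That library stood apart: its non-coding genes held 3.2% of reads against 14.5% to 17.5% elsewhere, and its mitochondrial genes 1.62% against 0.0807% to 0.446%. It correlated with its own replicate at 0.838, against 0.925 to 0.967 for the other genotypes. Whether it was counted with the same setting as the other libraries was not tested. Each result below was therefore also computed over the 11 libraries without it, a choice made after the data were seen. All 20 markers of late embryo differentiation could be tested, and so could all 15 listed genes of oocytes and early embryos. Being testable therefore does not tell these stages apart. Each mutated gene was lower in the libraries labelled as its mutants than in N2, other than hpl-2 in hpl-2 I158A, whose transcript (283 and 244 normalised counts) was near that of N2. For hpl-2 the values were 30.9 and 49.8 in lin-61 hpl-2 and 36.2 and 34.5 in hpl-2, against 304 and 242 in N2. For lin-61 they were 13.6 and 12.4 in lin-61 hpl-2 and 7.15 and 5.45 in lin-61, against 91.9 and 41.4 in N2. The libraries of the met-2 set-25 set-32 mutant had 44.3 and 77.0 for met-2, against 266 and 267 in N2. They had 159 and 99.7 for set-25, against 417 and 406 in N2, and 6.93 and 2.89 for set-32, against 14.0 and 15.8 in N2.

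The strand on which reads were counted is not given in the sources used here. Over 233 pairs in which a non-coding gene lies opposite coding exons over at least 90% of its length, the median log2 ratio of level per kilobase, non-coding over coding, was 6.09 to 6.82, and 4.02 for replicate 2 of met-2 set-25 set-32. Whether the value of a ttr gene counts its own RNA or reads of the opposite strand therefore cannot be told apart from the deposited values. Where another gene lies on the opposite strand of a called ttr gene, its values are given for some of the comparisons with a call, not for all. In RNA from whole embryos, fewer cells expressing a gene and less RNA per cell also cannot be told apart.

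Expression of the family was concentrated in a few members. ttr-50 (IV, 11640047 to 11641015) averaged 829 normalised counts per kilobase of exon over the 12 libraries, a level above 97.8% of the protein-coding genes measured. ttr-39 (IV, 10088367 to 10089877) followed at 308.8 per kilobase, ttr-16 (IV, 11063530 to 11064137) at 233, ttr-2 (III, 9927769 to 9929004) at 88.6 and ttr-42 (X, 2577742 to 2578262) at 70.1. The median of the 27 was 32.6 per kilobase against 39.0 for all coding genes measured, and 11 of the 27 lay above that median. The genes are short: their longest coding length had a median of 429 bases, against 1155 for all coding genes measured. Short genes collect few reads, and 16 of the 27 averaged under 20 normalised counts, while 10 normalised counts in N2 replicate 1 correspond to 6.42 reads.

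**Figure D1:**
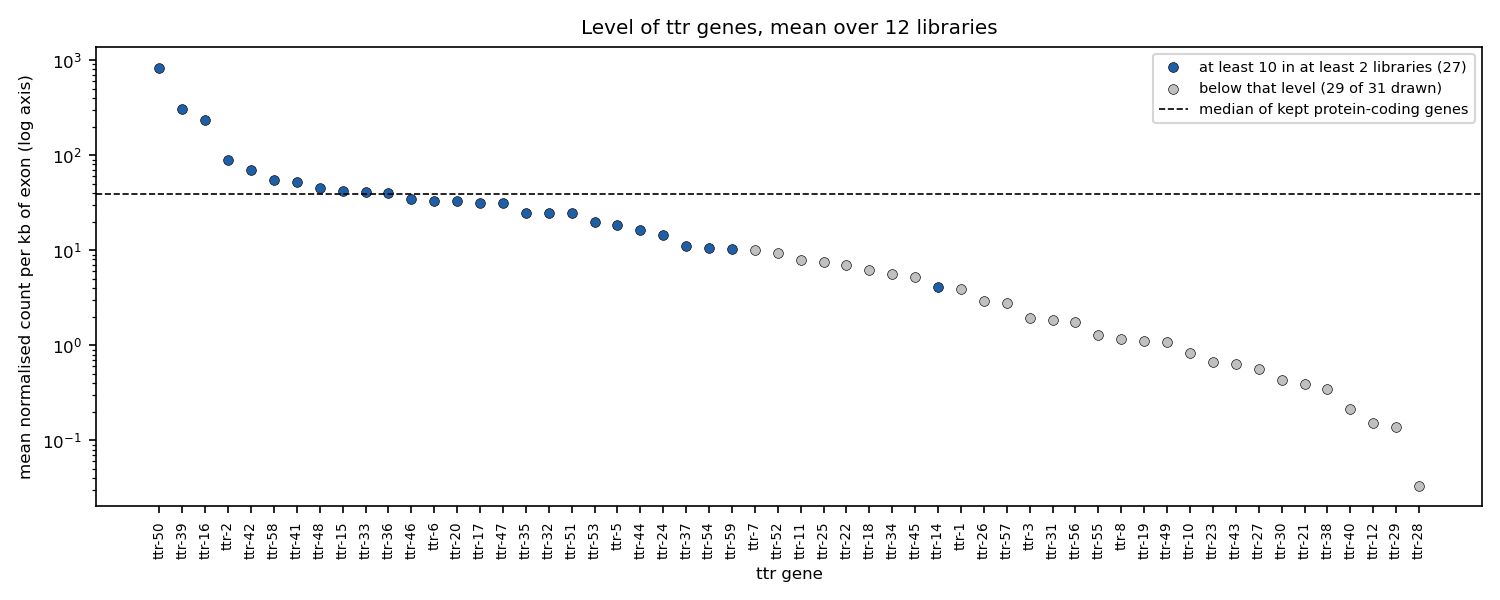
Mean normalised count per kilobase of exon over 12 libraries (log axis) for each ttr gene with at least 1 read, in order of level. The 27 tested genes are dark, the 29 of 31 untested genes that can be drawn are grey, and the dashed line is the median of measured coding genes at 39.0; ttr-50 stands highest at 829.

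The share of members that were measured differed between chromosomes, and the share of all genes kept on each chromosome was not computed. On chromosome IV 8 of 10 ttr genes were kept and on X 8 of 12, while on V it was 5 of 22, on III 4 of 9, on I 1 of 3 and on II 1 of 2. Many ttr genes are neighbours in the annotation: 12 runs of ttr genes within 10 kb of each other hold 29 of the 58, and 12 of these 29 were kept. The run ttr-27, ttr-28 and ttr-29 on V had no kept member, whereas ttr-36 and ttr-35 on X, ttr-54 and ttr-53 on IV and ttr-16 and ttr-17 on IV were kept together.

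Among the 31 untested genes, ttr-9 and ttr-13 had no read in any library. The highest single value among the 31 was 28.4 normalised counts, for ttr-25 in lin-61 hpl-2 replicate 1. The threshold was decided by the second-highest library: it was 9.19 for ttr-11 and 9.70 for ttr-52, just below, and 11.1 for ttr-37 and 11.2 for ttr-14, just above. ttr-52, the phosphatidylserine bridge, thus fell short. It had 4.94 and 3.39 normalised counts in lin-61 hpl-2, 2.89 and 2.04 for hpl-2 I158A, 4.76 and 21.3 in hpl-2, 3.06 and 0.909 in lin-61, 9.70 and 8.90 with met-2 set-25 set-32, and 3.115 and 1.22 in N2. Only hpl-2 replicate 2 was above 10, and the other hpl-2 library was within the range of the remaining genotypes.

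ttr-50 alone made up 40.1% to 66.4% of all ttr counts in a library. It had 762 and 854 normalised counts in lin-61 hpl-2, 838 and 814 for hpl-2 I158A, 856 and 788 in hpl-2, 560 and 616 in lin-61, 714 and 1146 with met-2 set-25 set-32, and 604 and 540 in N2. Both libraries of every mutant except lin-61 lay above both N2 libraries. Its log2 fold changes against N2 were 0.50, 0.53, 0.52, 0.04 and 0.66 in the order of genotypes just given, and none passed the test over 12 libraries (limma adjusted p from 0.209 to 0.980). Over 11 libraries 3 of them passed, with limma adjusted p = 0.0280 for lin-61 hpl-2, 0.00538 for hpl-2 I158A and 0.00995 for hpl-2. The exons of rbm-17 lie opposite 5.58% of the exon length of ttr-50. rbm-17 had 224 and 205 normalised counts in lin-61 hpl-2, 147 and 164 for hpl-2 I158A and 177 and 195 in hpl-2, against 176 and 112 in N2, and was not called in these comparisons over 11 libraries (limma adjusted p = 0.108, 0.660 and 0.216). The part of its reads in the values of ttr-50 was not tested.

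The remaining 57 genes together summed to 1092 and 724 normalised counts in lin-61 hpl-2, 642 and 640 for hpl-2 I158A, 1067 and 1099 in hpl-2, 837 and 823 in lin-61, 1052 and 580 with met-2 set-25 set-32, and 696 and 436 in N2. The libraries of hpl-2, of lin-61 and of lin-61 hpl-2 were above both N2 libraries. The hpl-2 I158A libraries lay between the 2 N2 libraries. By its mean over the 12 libraries ttr-39 had the largest part in this sum, and it ranged from 73.1 to 285 normalised counts between the N2 libraries alone. ttr-16 was above ttr-39 in both hpl-2 I158A libraries, hpl-2 replicate 1 and replicate 2 of met-2 set-25 set-32.

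**Figure D2:**
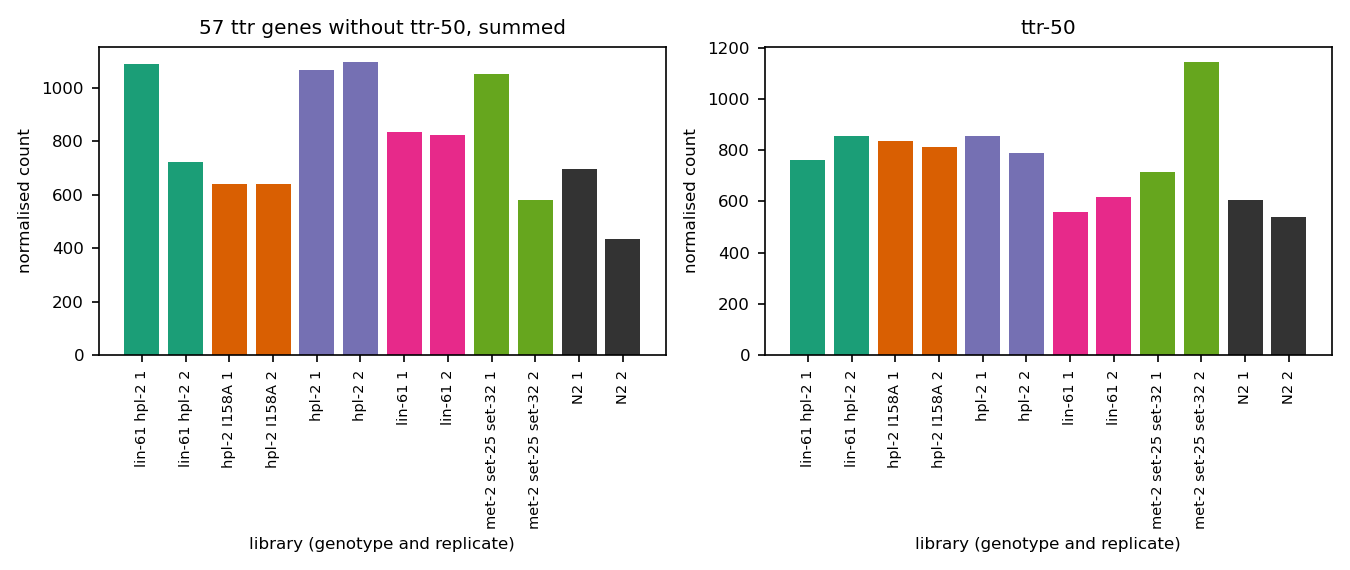
Normalised counts in each of the 12 libraries: left, the sum of the 57 ttr genes other than ttr-50; right, ttr-50. Bars are single libraries; without ttr-50 the hpl-2 libraries reach 1067 and 1099, against 696 and 436 in N2.

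Few ttr genes differed among genotypes past the test. Calls were made with limma on log2(normalised count + 1), at an adjusted p under 0.05 (Benjamini-Hochberg, over all 14640 genes). Asked whether a gene differed anywhere among the 6 genotypes, limma's moderated F test called ttr-6 (adjusted p = 0.00407) and ttr-16 (adjusted p = 0.0137), 2 of 27, while it called 6.92% of all genes. Over 11 libraries it called 11 of 27, against 40.2% of all genes. Those 11 were ttr-33, ttr-36, ttr-35, ttr-6, ttr-39, ttr-54, ttr-16, ttr-50, ttr-41, ttr-32 and ttr-2. With the other library of that genotype left out in its place, replicate 1, it called 15, where 59.6% of all genes were called. The median residual SD fell to 0.314 log2 units over 11 libraries, against 0.458 over 12.

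**Figure D3:**
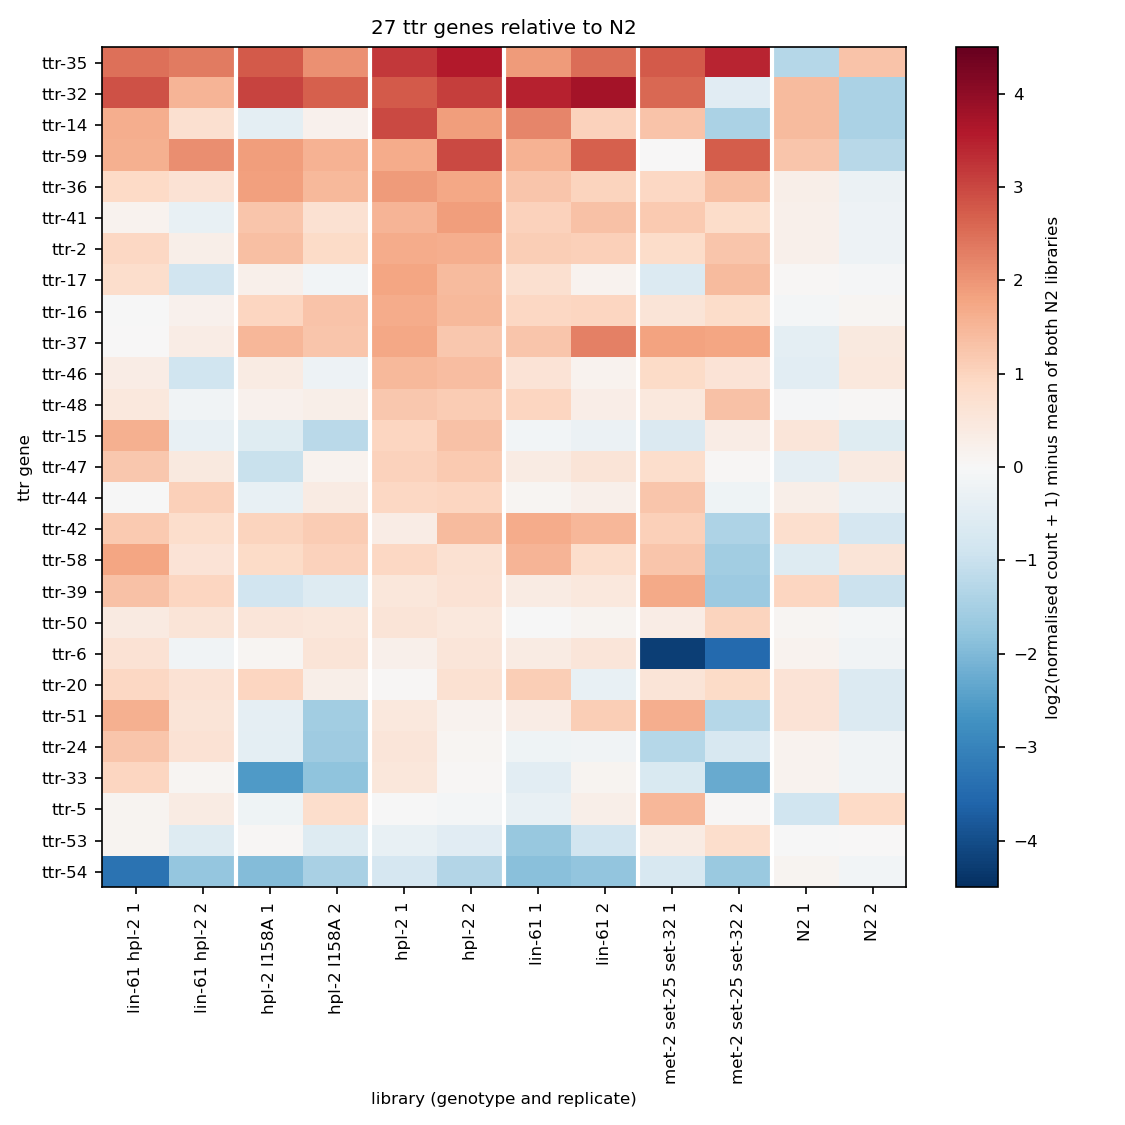
Log2(normalised count + 1) of the 27 tested ttr genes in each library, minus the mean of both N2 libraries, ordered by the difference in hpl-2; red is higher and blue lower than N2. ttr-6 is dark blue in the met-2 set-25 set-32 libraries alone, and ttr-54 is blue in all 10 mutant libraries.

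Against N2, the hpl-2 mutant had most ttr genes at higher values. Of the 27, 24 had a positive log2 fold change, with a median of 1.11 against 0.03 for all genes tested, and 18 had both hpl-2 libraries above both N2 libraries, while 27.5% of all genes did. Members below 10 in both N2 libraries, such as ttr-32 and ttr-17, passed the filter only through mutant libraries, which favours positive fold changes against N2. The median level of the tested ttr genes was 17.9 normalised counts, against 56.6 for tested coding genes, so all genes are no like background. Both limits hold for each comparison against N2 below. Past the test stood 1 gene, ttr-16, where 0.608% of all genes were called in that comparison. At an unadjusted p under 0.05 there were 12 of 27, against 15% of all genes. Over 11 libraries 8 were called, all higher, against 14.4% of all genes in either direction and 5.68% called higher.

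ttr-16, whose protein has no known role that can be stated here, had 213 and 184 normalised counts in hpl-2, against 62.3 and 69.5 in N2. The groups did not overlap, and the means were 199 ± 20.5 in hpl-2 and 65.9 ± 5.06 in N2 (SD, n = 2 each). The log2 fold change was 1.58 ± 0.23 (SE), a 2.98-fold higher level, with limma adjusted p = 0.0200. The call held without either met-2 set-25 set-32 library and was lost without each of the 10 other libraries, with an adjusted p of up to 0.371 without hpl-2 replicate 1. The authors' deposited table gives a log2 fold change of 1.59 for it, with an adjusted p of 1.4e-05.

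The end of ttr-16 overlaps the end of lin-3 on the opposite strand, so that 40.7% of its exon length lies opposite lin-3 exons. LIN-3 is the EGF-like ligand of vulval induction. lin-3 had 460 and 500.4 normalised counts in hpl-2, against 140 and 116 in N2, a log2 fold change of 1.90 ± 0.50 (SE) that did not pass over 12 libraries and passed over 11 (limma adjusted p = 0.117 and 0.000278). Both genes were thus at higher values in hpl-2, and the part of reads from the overlap in either value was not tested. ttr-17, the next ttr gene on the same strand as ttr-16, had 33.3 and 25.7 in hpl-2 against 9.35 and 8.53 in N2 (log2 fold change 1.61, limma adjusted p = 0.319).

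The 7 further genes called over 11 libraries, named here after their values were seen, were ttr-35, ttr-32, ttr-36, ttr-41, ttr-2, ttr-48 and ttr-50. ttr-35 (X, 6512285 to 6512918) had 20.9 and 27.5 normalised counts in hpl-2, against 0 and 4.87 in N2, and its log2 fold change of 3.37 had limma adjusted p = 0.00607 over 11 libraries and 0.0846 over 12. That fold change was 2.09 without N2 replicate 1, where ttr-35 was at 0, and 4.64 without N2 replicate 2. ttr-36, which lies just before it on the same strand, had 31.4 and 27.5 against 9.35 and 6.09 (log2 fold change 1.83, limma adjusted p = 0.00824 over 11 libraries and 0.0875 over 12). ttr-2 had 69.5 and 68.2 in hpl-2 against 24.9 and 18.3 in N2, with a log2 fold change of 1.64 and limma adjusted p of 0.00311 over 11 libraries and 0.0738 over 12.
In each of these pairs of groups the hpl-2 libraries lay above the N2 libraries without overlap. ttr-32 had 17.1 and 22.1 in hpl-2 against 6.23 and 0 in N2, and its log2 fold change of 2.93 was 4.36 without N2 replicate 1 and 1.502 without N2 replicate 2. Of its exon length 7.75% lies opposite R13A5.7, which had 8.57 and 14.2 in hpl-2 against 17.1 and 24.4 in N2 (limma adjusted p = 0.211 over 11 libraries). The authors' deposited table calls 4 ttr genes higher in hpl-2 than in N2, which are ttr-16, ttr-2, ttr-41 and ttr-35, where it calls 4.29% of all genes with an adjusted p.

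**Figure D4:**
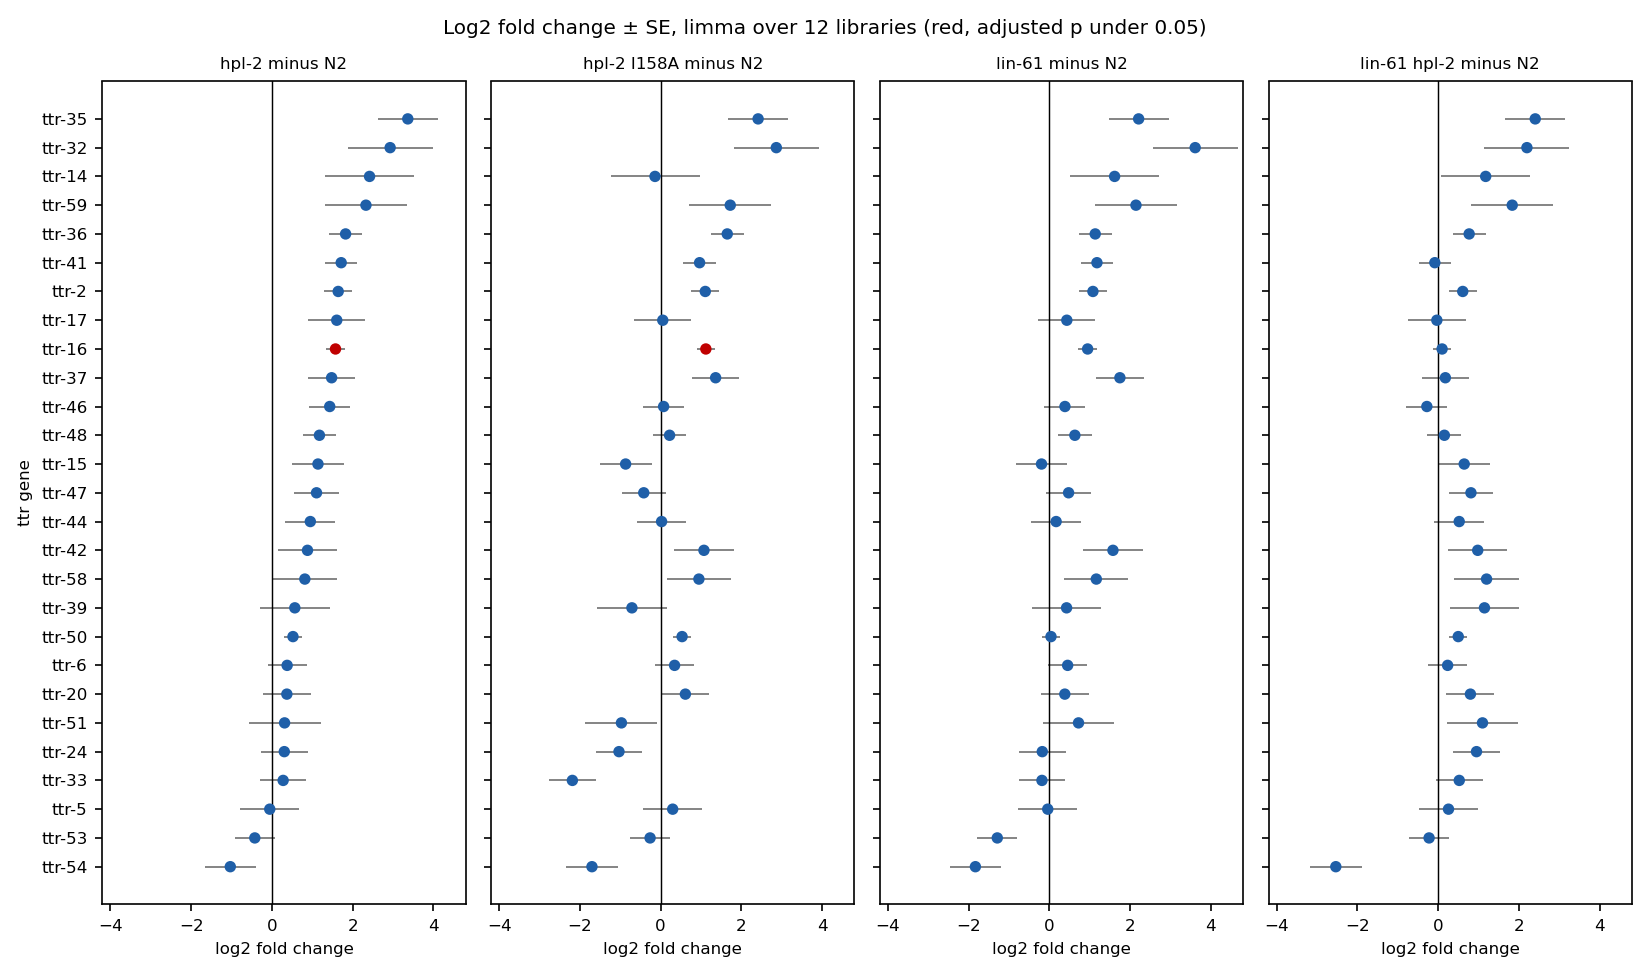
Log2 fold change against N2 with its standard error (limma, 12 libraries) for 27 ttr genes in hpl-2, hpl-2 I158A, lin-61 and lin-61 hpl-2. Red marks an adjusted p under 0.05, which only ttr-16 reaches, at 1.12 for hpl-2 I158A and 1.58 for hpl-2; in hpl-2, 24 of 27 points lie right of 0.

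In hpl-2 I158A against N2, one ttr gene was called over 12 libraries. The log2 fold change was positive for 18 of 27, with a median of 0.30 against 0.03 for all genes, and 12 of 27 had both libraries above both N2 libraries, against 29.5% of all genes. The call was ttr-16, 1 of 27 where 4% of all genes were called. ttr-16 had 129 and 161 normalised counts in hpl-2 I158A, against 62.3 and 69.5 in N2. The groups did not overlap, and the log2 fold change was 1.12 ± 0.23 (SE; limma adjusted p = 0.0284). The call was lost without each of the 10 libraries other than those of met-2 set-25 set-32 (adjusted p up to 0.207) and without a filter on low values (0.0556).

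Over 11 libraries 7 of 27 were called in hpl-2 I158A minus N2, where 22% of all genes were: ttr-16, ttr-2, ttr-32, ttr-35, ttr-36 and ttr-50 were higher and ttr-33 was lower. ttr-33 is taken up with the comparison against hpl-2. The authors' deposited table calls ttr-16 higher and ttr-33 lower in hpl-2 I158A, 2 ttr genes, where it calls 8% of all genes.

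Transcripts of oocytes and early embryos differed in hpl-2 I158A as well. Of 15 such genes (mex-1, mex-5 and pos-1 among them, which encode RNA-binding proteins of the early embryo), 8 rose against N2 and 12 rose against hpl-2 (limma, 12 libraries), with median log2 fold changes of 1.09 and 1.30. Their summed level was 7787 and 7838 normalised counts in hpl-2 I158A, against 3402 and 3218 in hpl-2 and 3293 and 4450 in N2. Of 20 markers of late differentiation, 3 fell against N2 and against hpl-2, which were tnt-4, unc-13 and che-3, while the median log2 fold changes of the list were 0.27 and 0.16. Over 11 libraries dpy-7, noah-1 and noah-2 were also called, higher than in N2. The list had a summed level of 35580 and 35550 in hpl-2 I158A, 29370 and 29360 in hpl-2 and 25060 and 34930 in N2. The part of such a difference in the ttr values was not tested.

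Against hpl-2, the hpl-2 I158A mutant had most ttr genes at lower values. The log2 fold change was negative for 21 of 27, with a median of -0.67 against -0.05 for all genes. The same hpl-2 libraries enter hpl-2 minus N2, lin-61 hpl-2 minus hpl-2 and the interaction below, so these are not separate results. Members can also pass the filter through high hpl-2 values, which favours negative fold changes against hpl-2. All genes are no like background here either. ttr-33 was the 1 gene called, where 7.84% of all genes were. Over 11 libraries 7 were called and all were lower, against 29.9% of all genes in either direction and 15.5% called lower. They were ttr-33, ttr-15, ttr-47, ttr-39, ttr-46, ttr-14 and ttr-17.

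ttr-33 (V, 7837093 to 7837909) had 3.85 and 7.13 normalised counts in hpl-2 I158A, against 39.97 and 28.3 in hpl-2. These values rest on 4 and 7 reads in hpl-2 I158A and 42 and 32 in hpl-2. ttr-33 fell by 2.46 ± 0.58 on the log2 scale (SE; limma adjusted p = 0.0320), and its groups did not overlap. It had 54.4 and 29.4 in lin-61 hpl-2, 19.4 and 30.0 in lin-61, 16.6 and 4.89 with met-2 set-25 set-32, and 31.2 and 24.4 in N2. The 2 hpl-2 I158A libraries and met-2 set-25 set-32 replicate 2 were the lowest of the 12.
Against N2, the log2 fold change of ttr-33 in hpl-2 I158A was -2.18, with limma adjusted p = 0.0632 over 12 libraries and 0.00221 over 11. The call against hpl-2 was lost without either hpl-2 library, either hpl-2 I158A library, either lin-61 library or lin-61 hpl-2 replicate 1 (adjusted p up to 0.221), and without a filter on low values (0.0588).

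ttr-33 lies wholly within the span of mig-6 on the opposite strand, though opposite none of its exons, and 7.14% of its exon length overlaps txt-5 on its own strand. MIG-6 is a papilin-type protein of the extracellular matrix. mig-6 had 4681 and 4620 normalised counts in hpl-2 I158A, against 2870 and 3018 in hpl-2 (log2 fold change 0.66, limma adjusted p = 0.0513 over 12 libraries and 0.000372 over 11). C37C3.12, the next gene on the strand of ttr-33 and also inside mig-6, had 1.93 and 4.08 in hpl-2 I158A against 35.2 and 15.1 in hpl-2, and fell by 2.65 on the log2 scale (limma adjusted p = 0.0456). The neighbours were chosen for their position, and the values of txt-5 are not given here. The part of reads from mig-6 in these values was not tested.

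Of the ttr genes lower over 11 libraries only, ttr-15 (III, 10337847 to 10339440) had 13.5 and 8.15 normalised counts in hpl-2 I158A against 39.97 and 51.4 in hpl-2. Its log2 fold change was -2.01, with limma adjusted p = 0.0139 over 11 libraries. ttr-39, the second most abundant member, had 80.0 and 96.8 in hpl-2 I158A against 205 and 226 in hpl-2, a log2 fold change of -1.28 (limma adjusted p = 0.0267 over 11 libraries), and 10.4% of its exon length lies opposite ndc-80. The groups did not overlap for either gene. ndc-80, which encodes a kinetochore protein, had 84.8 and 99.9 in hpl-2 I158A against 187 and 207 in hpl-2 and also fell (log2 fold change -1.09, limma adjusted p = 0.0485 over 12 libraries and 0.00315 over 11). H14N18.4, opposite 10.2% of the exon length of ttr-47, had 26.01 and 33.6 in hpl-2 I158A against 59.0 and 63.8 in hpl-2 (-1.03, limma adjusted p = 0.111 over 11 libraries). vap-2, opposite 6.36% of that of ttr-14, had 6.74 and 0 in hpl-2 I158A against 1.90 and 6.20 in hpl-2 and was below the level for testing. The part of reads from these genes in the ttr values was not tested. The authors' deposited table calls ttr-15 and ttr-33 lower, 2 ttr genes, where it calls 11.2% of all genes.

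Neither lin-61 nor lin-61 hpl-2 had a ttr gene called against N2 over 12 libraries. For lin-61, limma called 0 of 27 where it called 0.0956% of all genes, edgeR and DESeq2 called 0, and 9 of 27 had an unadjusted p under 0.05, against 9.5% of all genes. Its median log2 fold change was 0.48 against 0.02 for all genes, and 13 of 27 had both libraries above both N2 libraries, against 24.4% of all genes. Over 11 libraries ttr-16 and ttr-32 were called higher in lin-61, 2 of 27, where 6.19% of all genes were called.
ttr-16 had 126 and 130 in lin-61 against 62.3 and 69.5 in N2 (log2 fold change 0.95, limma adjusted p = 0.00823 over 11 libraries), and ttr-32 had 28.6 and 35.4 against 6.23 and 0 (3.61, limma adjusted p = 0.00948 over 11 libraries). The value for ttr-32 was 5.04 without N2 replicate 1 and 2.18 without N2 replicate 2. R13A5.7, opposite ttr-32, had 17.4 and 10.9 in lin-61 against 17.1 and 24.4 in N2 (limma adjusted p = 0.511 over 11 libraries).

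For lin-61 hpl-2 against N2, limma called 0 of 27 where it called 0.273% of all genes, edgeR and DESeq2 called 0, and 3 of 27 had an unadjusted p under 0.05, against 9.54% of all genes. The log2 fold change was positive for 22, with a median of 0.61 against 0.01 for all genes, and 12 of 27 had both libraries above both N2 libraries, against 22.1% of all genes. Over 11 libraries ttr-50 was called higher and ttr-54 lower, 2 of 27, where 5.01% of all genes were called.

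ttr-54 (IV, 10155775 to 10156771) was the one tested member below both N2 libraries in all 5 mutants. It had 1.24 and 5.66 normalised counts in lin-61 hpl-2, 4.82 and 7.13 for hpl-2 I158A, 12.4 and 7.97 in hpl-2, 5.11 and 5.45 in lin-61, and 12.5 and 6.01 with met-2 set-25 set-32, against 23.4 and 19.5 in N2. None of these comparisons passed over 12 libraries; the log2 fold changes ran from -2.53 in lin-61 hpl-2 to -1.03 in hpl-2. The value in lin-61 hpl-2 was -1.75 without its replicate 1 and -3.32 without its replicate 2. The 5 comparisons share the N2 libraries. Per mutant, the share of all genes below both N2 libraries ran from 14.6% (met-2 set-25 set-32) to 28.8% (hpl-2 I158A). The share of all genes below them in all 5 was not computed, so the 1 of 27, ttr-54, has no background beside it. ttr-53, its neighbour on the same strand, had 15.6 and 15.8 in N2 and was below both in hpl-2 and lin-61 only.

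The lin-61 hpl-2 mutant was also set against each single mutant. The limits given for hpl-2 I158A against hpl-2 hold for lin-61 hpl-2 against hpl-2 too. Against hpl-2, 18 of 27 had a negative log2 fold change, with a median of -0.50 against 0.01 for all genes, and ttr-16 was the 1 gene called where 0.13% of all genes were. ttr-16 had 65.5 and 75.8 normalised counts in lin-61 hpl-2 against 213 and 184 in hpl-2. It fell by 1.48 ± 0.23 on the log2 scale (SE; limma adjusted p = 0.0462), and the groups did not overlap. This call was lost with TMM scaling (limma adjusted p = 0.0509), with edgeR (0.0654), without a filter on low values (0.0809), and without each of the 10 libraries other than those of met-2 set-25 set-32 (up to 0.489).

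Over 11 libraries 4 were called in lin-61 hpl-2 minus hpl-2, all lower, where 19.5% of all genes were called in either direction: ttr-16, ttr-41, ttr-2 and ttr-46. The authors' deposited table calls ttr-16 and ttr-41 lower there, 2 ttr genes, where it calls 5.61% of all genes. Of the stage markers, none passed in the same comparison over 12 libraries, and over 11 libraries 6 of 20 late differentiation markers were lower (list median -0.39) and 6 of 15 oocyte and early embryo genes were higher (list median 0.54). Their part in the ttr values was not tested. Against lin-61, limma called 0 of 27 where it called 0.0273% of all genes, edgeR and DESeq2 called 0, and 3 of 27 had an unadjusted p under 0.05, against 12.6% of all genes. Over 11 libraries 3 were called in that comparison, ttr-16 and ttr-41 lower and ttr-50 higher, where 9.44% of all genes were called.

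For some genes the value in lin-61 hpl-2 was near that in N2 although both single mutants were higher. This was tested as an interaction, the log2 value in lin-61 hpl-2 minus those in hpl-2 and lin-61 plus that in N2, a comparison added after the data were seen. It called 2 of 27, ttr-16 and ttr-41, where 1.73% of all genes were called. For ttr-16 it was -2.43 ± 0.33 (SE; limma adjusted p = 0.0123). For ttr-41 it was -2.98 ± 0.57 (SE; limma adjusted p = 0.0346).
ttr-41 (II, 4727328 to 4727869), which no annotated gene overlaps, had 14.8 and 10.2 normalised counts in lin-61 hpl-2, 39.97 and 51.4 in hpl-2, 27.6 and 34.5 in lin-61, and 15.6 and 10.97 in N2. Both single mutants lay above both N2 libraries, and lin-61 hpl-2 overlapped with N2. lin-3, opposite ttr-16, had 266 and 128 in lin-61 hpl-2, 460 and 500.4 in hpl-2, 372 and 454 in lin-61, and 140 and 116 in N2, with an interaction of -3.05 (limma adjusted p = 0.0575 over 12 libraries and 7.48e-05 over 11).
Over 11 libraries the interaction called 9 of 27, all negative, where 20.2% of all genes were called in either direction. The call of ttr-41 was lost without each of the 10 libraries other than those of met-2 set-25 set-32 (adjusted p up to 0.208), with a replicate block and without a filter on low values. That of ttr-16 was lost without either library of hpl-2, lin-61 or lin-61 hpl-2 and without N2 replicate 1 (adjusted p up to 0.114).

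**Figure D5:**
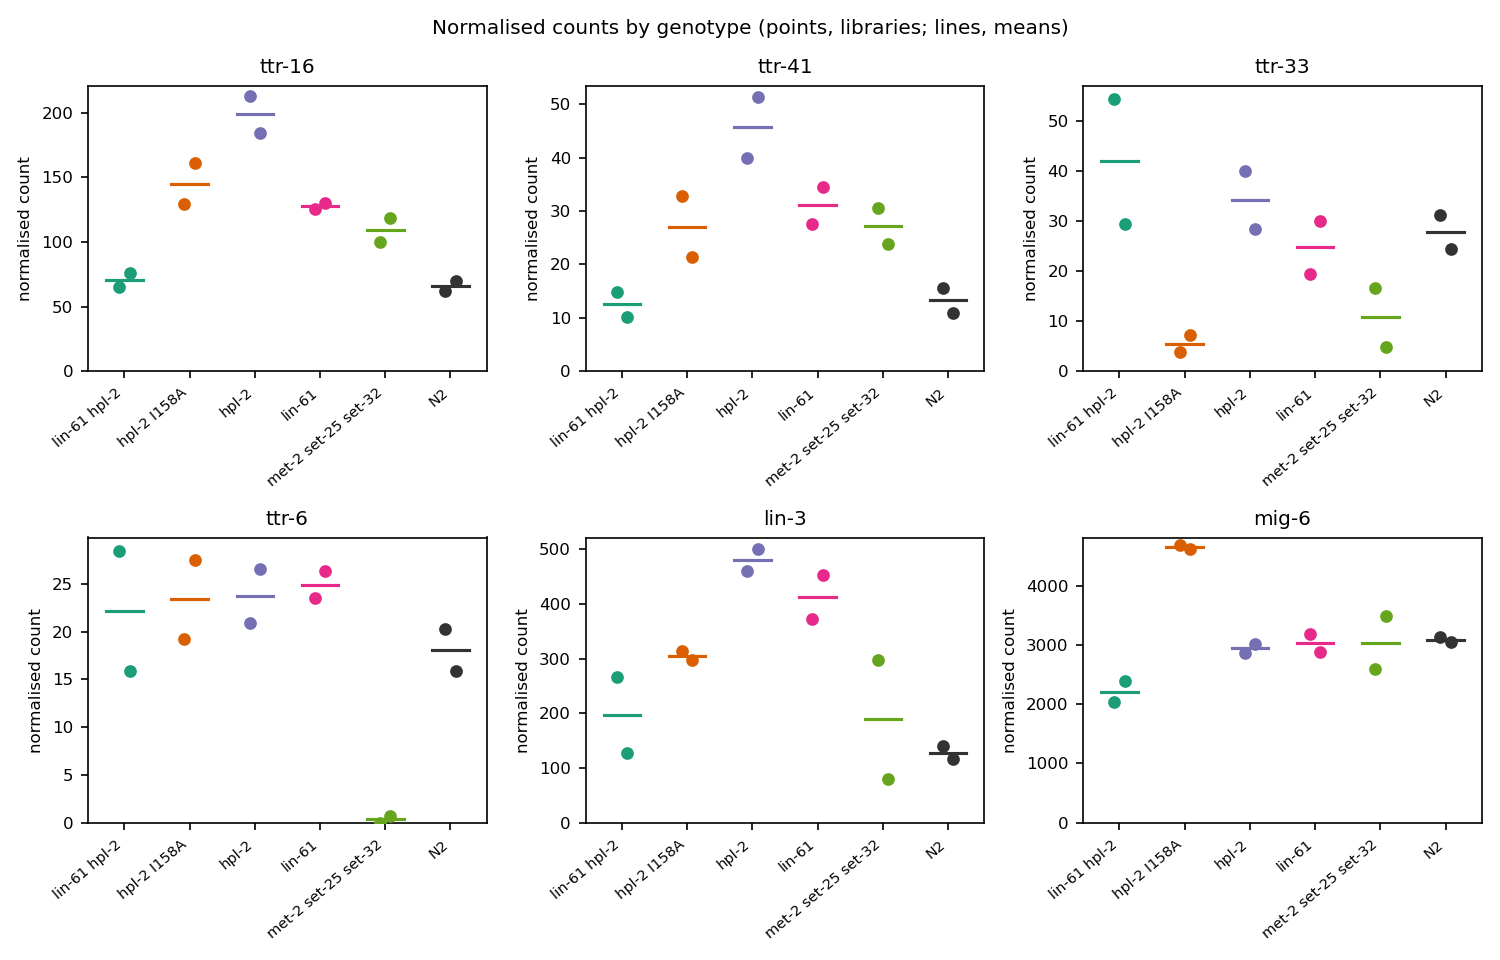
Normalised counts of ttr-16, ttr-41, ttr-33 and ttr-6 and of lin-3 and mig-6, which lie on the opposite strand of ttr-16 and ttr-33, in the 6 genotypes; points are libraries and lines are means of 2. ttr-16 and ttr-41 overlap between lin-61 hpl-2 and N2, ttr-33 is lowest in hpl-2 I158A, and ttr-6 is at 0 and 0.667 with met-2 set-25 set-32.

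In met-2 set-25 set-32 against N2, ttr-6 was nearly undetected. ttr-6 (X, 6596425 to 6597121) had 0 and 0.667 normalised counts in met-2 set-25 set-32, against 20.3 and 15.8 in N2. The other genotypes had 28.4 and 15.8 in lin-61 hpl-2, 19.3 and 27.5 for hpl-2 I158A, 20.9 and 26.6 in hpl-2, and 23.5 and 26.4 in lin-61. All 10 of these libraries lay at 15.8 or above, and met-2 set-25 set-32 was below every one of them in both libraries. In its replicate 2, the library with the most assigned reads, 3 reads were counted for ttr-6.

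In these embryos ttr-6 fell by 3.87 ± 0.49 on the log2 scale (SE; limma adjusted p = 0.00628), the 1 ttr gene called where 0.328% of all genes were. There were 3 reads over both met-2 set-25 set-32 libraries and 26 over both N2 libraries. The pooled level in met-2 set-25 set-32 was 3.24% of that in N2 (exact 95% interval 0.627% to 10.6%, counting error only). Most of the weight in this pooled level and interval lay with replicate 2 of the mutant, the library that stood apart. A read there was worth 0.2225 normalised counts, against 1.386 in replicate 1. Against each other mutant the pooled level was 2.3% to 2.63%. Over the 11 libraries it remained the 1 ttr gene called, where 3.46% of all genes were (limma adjusted p = 0.000604). The call was lost without N2 replicate 1 (0.0622) and in a fit of these 2 genotypes alone (0.999).

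No annotated gene overlaps ttr-6. The nearest tested genes to either side, fbxl-4 and cpr-6, lie on the opposite strand, and neither was called in met-2 set-25 set-32 minus N2, with log2 fold changes of 0.58 (limma adjusted p = 0.686) and 0.39 (limma adjusted p = 0.519). The authors' deposited table calls ttr-6 lower, with a log2 fold change of -4.99 and an adjusted p of 0.000315, its 1 ttr gene where it calls 2.06% of all genes. Some ttr genes differed widely between the libraries of this mutant, of which ttr-39 with 472.5 and 45.4, ttr-58 with 36.0 and 4.23, and ttr-42 with 37.4 and 6.01 are named after their values were seen. In others they were close, with 99.8 and 119 for ttr-16 and 29.1 and 24.5 for ttr-46. Over 12 libraries the log2 fold change against N2 was positive for 19 of 27, with a median of 0.58 against -0.01 for all genes. Of the 27, 10 had both libraries above both N2 libraries, against 16.4% of all genes. All comparisons of a mutant with N2 share the same N2 libraries.

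TTR-52 acts in corpse clearance. Of 20 genes of corpse clearance and phosphatidylserine exposure, ced-1 and ced-7 among them, limma over 12 libraries called 2 in hpl-2 I158A minus N2, where 4% of all genes were called. Both were lower: ced-5, an adaptor for corpse engulfment (log2 fold change -1.69, adjusted p = 0.0255), and ina-1, an integrin alpha subunit (-1.31, adjusted p = 0.0381). ced-5 was also lower in hpl-2 I158A than in hpl-2 (-1.26, limma adjusted p = 0.0483), the 1 call of the 20 there, where 7.84% of all genes were called. In the other 6 comparisons between genotypes 0 of the 20 were called over 12 libraries, and for core cell death 0 of 3 tested genes were called in any of 8.

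Over 11 libraries more of these genes were called. In hpl-2 I158A minus N2 there were 7 of 20 (2 higher, 5 lower), where 22% of all genes were called, and in hpl-2 I158A minus hpl-2 there were 7 (3 higher, 4 lower), where 29.9% were. In hpl-2 minus N2 there were 5, ced-6, ced-2, tat-1, chat-1 and wah-1, all lower, where 14.4% of all genes were. In lin-61 hpl-2 there were 5 against hpl-2 (3 higher, 2 lower), where 19.5% of all genes were, 4 against lin-61 (3 higher, 1 lower), where 9.44% were, and 1 against N2, unc-73, where 5.01% were. In lin-61 minus N2 there was 1, ina-1, where 6.19% were. Of the core cell death genes, ced-3, the caspase of programmed cell death, and ced-9, its inhibitor upstream, were called higher than in hpl-2 both in hpl-2 I158A (log2 fold changes of 0.92 for ced-3 and 0.59 for ced-9) and in lin-61 hpl-2 (0.76 for ced-3 and 0.49 for ced-9). These were 2 of 3 tested genes, where 29.9% and 19.5% of all genes were called.

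Of 10 tested genes studied with ttr-33 in oxidative stress and dopamine neurons, 3 were called over 12 libraries. sod-2, a mitochondrial superoxide dismutase, rose in hpl-2 I158A against N2 (log2 fold change 0.98, limma adjusted p = 0.0485), where 4% of all genes were called. Against hpl-2, where 7.84% of all genes were called, sod-1, the cytosolic superoxide dismutase, rose by 1.11 on the log2 scale (limma adjusted p = 0.0142) and cat-2, the tyrosine hydroxylase of dopamine synthesis, fell by 2.05 (limma adjusted p = 0.0458). cat-2 and ttr-33 were both lower in hpl-2 I158A than in hpl-2, while the median log2 fold change of the list in that comparison was 0.37. A link between cat-2 and ttr-33 was not tested. Over 11 libraries 3 of the 10 were called in hpl-2 I158A minus N2, where 22% of all genes were. There were 5 in hpl-2 I158A minus hpl-2 (4 higher, and cat-2 lower), where 29.9% of all genes were called, and 2 in lin-61 hpl-2 minus hpl-2, where 19.5% were. The 4 tested glial markers, of 8 listed, had no call over 12 libraries. Over 11 libraries ptr-10 was called higher in hpl-2 than in N2 (log2 fold change 1.23, limma adjusted p = 0.0482) and lin-26 lower in lin-61 hpl-2 than in hpl-2 (-0.65, limma adjusted p = 0.0169) and in lin-61 (-0.67, limma adjusted p = 0.0245), and of the glial list vap-1 and hlh-17 were at 0 in both N2 libraries.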

How the data were processed

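Poly(A) RNA-seq of 12 late-stage embryo libraries was used, 2 for each of 6 genotypes, grouped by the labels' titles. Tools named in the submitters' processing notes are STAR, featureCounts and DESeq2, and builds WBcel235 and ce11; how strands were counted is not given in the sources used here. What the authors deposited are normalised read counts (a signal: reads over the size factor of the library). Whole reads were recovered for 100% of values, within 1e-06 of a read. Per the file headers, the authors' second table gives a log2 fold change, a p-value and an adjusted p-value per gene and pair of genotypes; its fold changes run the other way, from their values, and were turned round.

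Symbols, positions (WBcel235, counted from 1) and exon lengths came from Ensembl 115, matched by identifier for 46817 of 46904 genes. Genes with at least 10 in at least 2 libraries (14640) were tested with limma 3.58.1 (R 4.3.3) on log2(value + 1), which understates the change of low genes, with genotype as the only term and Benjamini-Hochberg adjustment over all of them. The depth sets the precision: in N2 replicate 1 a read was worth 1.56 normalised counts. The test was also run on simulated reads whose spread was the same for every gene and library. No simulated library stood apart as replicate 2 of met-2 set-25 set-32 does, so that check does not bear on the calls here. Alternatives were the filter, pseudocounts of 0.5 and 5, TMM, fits of 2 genotypes, a replicate block, each library left out, and edgeR 4.0.16 and DESeq2 1.42.0 on the recovered reads. On those reads edgeR called 38 genes in hpl-2 minus N2, 362 in hpl-2 I158A minus N2, 11 in lin-61 minus N2, 24 in lin-61 hpl-2 minus N2, 45 in met-2 set-25 set-32 minus N2, 836 in hpl-2 I158A minus hpl-2, 6 in lin-61 hpl-2 minus hpl-2 and 2 in lin-61 hpl-2 minus lin-61.

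The members, gene lists and comparisons were chosen with earlier results of these data known. Named are every ttr gene called, the 5 highest per kilobase, ttr-52 and ttr-33, 2 on each side of the threshold, and of each list up to 4 called genes per comparison; other names were chosen after their values were seen. Lists are described by counts and medians, with no set test.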

Additional observations from a re-analysis of the deposited data

Results flagged for a closer look

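For 2 of 27 ttr genes limma's interaction test for hpl-2 with lin-61 made a call over 12 libraries, where 1.73% of all genes were called. The test asks whether the effect of one mutation differs with the other mutation present, and it was added after the data were seen. edgeR and DESeq2 were run on the same libraries. For ttr-16 the interaction was -2.43 on the log2 scale (limma adjusted p = 0.0123), with edgeR giving an adjusted p of 0.0163 and DESeq2 2.99e-06 on the recovered reads. For ttr-41 it was -2.98 (limma adjusted p = 0.0346), with 0.0391 by edgeR and 0.0037 by DESeq2, and its call was lost with a replicate block and without a filter on low values. In both genes the 2 single mutants were above N2 in both libraries, while ttr-16 in lin-61 hpl-2 (65.5 and 75.8 normalised counts) and ttr-41 (14.8 and 10.2) overlapped with N2 (62.3 and 69.5, and 15.6 and 10.97). The adjusted p without each library in turn ranged from 4.32e-05 to 0.114 for ttr-16 and from 0.00151 to 0.208 for ttr-41. lin-3, opposite 40.7% of the exon length of ttr-16, had an interaction of -3.05 (limma adjusted p = 0.0575), and its part in the ttr-16 values was not tested.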

How the results depend on the processing

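No direction of a called ttr gene reversed under the alternatives run, and pseudocounts of 0.5 and 5 moved no count of calls by over 1.5 times. With 0 to 2 calls in a comparison, other settings did. DESeq2 called 4 ttr genes in hpl-2 minus N2 (1.94% of all genes), 2 in hpl-2 I158A minus N2 (6.1%), 2 in hpl-2 I158A minus hpl-2 (9.88%), 2 in lin-61 hpl-2 minus hpl-2 (2.94%) and 6 in any difference among the 6 genotypes (17.7%). Fits of the 2 genotypes alone called 2 in hpl-2 minus N2 (3.18% of all genes), 3 in hpl-2 I158A minus N2 (11.2%), 0 in met-2 set-25 set-32 minus N2 (0.00683%), 10 in hpl-2 I158A minus hpl-2 (42.9%), 7 in lin-61 hpl-2 minus hpl-2 (23.6%) and 4 in lin-61 hpl-2 minus lin-61 (14.3%). Without the filter there were 0 in hpl-2 I158A minus N2, 0 in hpl-2 I158A minus hpl-2, 0 in lin-61 hpl-2 minus hpl-2 and 1 in the interaction. TMM scaling and edgeR gave 0 in lin-61 hpl-2 minus hpl-2. The cause was not tested, save that without a filter more genes enter the adjustment.

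Leaving out each library in turn gave 0 to 8 calls in hpl-2 minus N2, 0 to 7 in hpl-2 I158A minus N2, 0 to 3 in lin-61 minus N2, 0 to 2 in lin-61 hpl-2 minus N2, 0 to 11 for met-2 set-25 set-32 minus N2, 0 to 7 in hpl-2 I158A minus hpl-2, 0 to 5 in lin-61 hpl-2 minus hpl-2, 0 to 3 in lin-61 hpl-2 minus lin-61, 0 to 9 in the interaction and 1 to 15 among the 6 genotypes. At these highest counts the share of all genes called was 14.6%, 22.1%, 6.28%, 5.26%, 35.6%, 29.9%, 19.6%, 9.58%, 20.2% and 59.6%, in the same order. The highest counts came without a met-2 set-25 set-32 library; 11 came without its replicate 1, and the lone sample left is assumed to vary like the other groups. The filter at 5 keeps 35 ttr genes and at 20 keeps 20.

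Replicate numbers are shared between genotypes, but 1 of 15 correlations of deviations was over 0.1 (range -0.08 to 0.16), so they were not taken as pairs. With a replicate block there were 0 calls in lin-61 hpl-2 minus hpl-2 (ttr-16, adjusted p = 0.0757) and 1 in the interaction (ttr-41 lost, 0.0502); the block changed no other call. Depth limits low genes: ttr-33 and ttr-6 rest on 7 or fewer reads in each library in which they were called low.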
